A study of Homo sapiens with 4 samples.

Results

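Non-muscle myosin II is the motor that pulls on actin filaments beneath the membrane and at the junctions of epithelial cells, and the 8 genes described here encode its chains and one of the kinases that switches it on. They were taken by gene symbol from both deposited tables: the heavy chains MYH9, MYH10 and MYH14, the essential light chain MYL6, the regulatory light chains MYL9, MYL12A and MYL12B, and MYLK, which encodes myosin light chain kinase (MLCK). All 8 were listed, as 25 RefSeq transcripts among 63714 transcripts of 27685 genes. Reads and FPKM were summed over the transcripts of a gene and also kept for each transcript.

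The libraries came from HT-29, an established human colorectal adenocarcinoma line of epithelial origin, grown in RPMI with fetal bovine serum and given no treatment. The control group carried an empty control vector and is labelled WT, and the other group stably expressed TRIM40, a RING-type E3 ubiquitin ligase, with an N-terminal Myc tag (Myc-TRIM40). There were 2 libraries in each group, 1 from each of 2 independent experiments, and each deposited table held the control and the Myc-TRIM40 library of 1 experiment. Both groups had therefore passed through viral transduction and selection of cells, in 1 cancer line only, and the Myc-TRIM40 cells express the transgene from the vector, at a level set by it. The study asked how TRIM40 acts on the actin cytoskeleton through the kinase ROCK1, and the RNA level of the motor that ROCK1 controls bears on what was available for that kinase to act on. RNA levels say nothing about phosphorylation of the protein.

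A non-muscle myosin II molecule is a pair of heavy chains, each holding 1 essential and 1 regulatory light chain at its neck. MYH9, MYH10 and MYH14 give the IIA, IIB and IIC forms, which differ in how long they stay bound to actin. Phosphorylation of the regulatory light chain by MLCK, which is activated by calmodulin, or by ROCK kinases unfolds the molecule and lets it form filaments, and myosin phosphatase removes the phosphate. In the gut, MLCK at the tight junction is known for opening the epithelial barrier in inflammation.

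The 3 regulatory light chains share the site on which these kinases act, and it is shown here because all 3 genes feed the same protein pool. The stretches below are coding sequence from GENCODE v29 transcripts on GRCh38, 42 bases each, 5′ to 3′. The capitals mark the codons of the threonine and of the serine next to it that are phosphorylated. They lie in coding exons at chr20:36544921-36544962 for MYL9, chr18:3253281-3253322 for MYL12A and chr18:3272935-3272976 for MYL12B, all on the plus strand.
MYL9: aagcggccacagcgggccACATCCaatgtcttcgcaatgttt
MYL12A: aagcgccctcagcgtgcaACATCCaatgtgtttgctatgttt
MYL12B: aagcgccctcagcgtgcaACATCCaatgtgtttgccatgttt

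The 6 capital bases were the same in all 3. MYL12A differed from MYL12B at 1 of the 42 bases, and MYL9 differed from each of them at 7. Over the whole coding sequence MYL12A and MYL12B shared 491 of 513 aligned bases (95.7%), whereas MYL9 was 79.3% identical to MYL12A and 80.8% identical to MYL12B. The longest unbroken run shared by MYL12A and MYL12B was 77 bases, over the full transcripts NM_006471 and NM_033546. Reads short enough to lie within a shared run could have been assigned to either of MYL12A and MYL12B, and how many did was not examined. The split between these 2 genes is an estimate. They are neighbours on chromosome 18, at 3247480-3256235 (MYL12A) and 3262111-3278282 (MYL12B) in hg19, the build of the files.

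Each library held between 60954602 and 67424698 estimated reads. TRIM40 itself had 0 reads in both control libraries, against 272646 reads in Myc-TRIM40 1 and 110665 reads in Myc-TRIM40 2. All 10 colon epithelium markers had reads in all 4 libraries, with a summed FPKM between 6691 and 9480, whereas smooth muscle markers summed to 3.53 to 6.39 FPKM, with ACTG2 and CNN1 at 0 in all 4. Fibroblast markers summed to 0.879 to 1.36 FPKM (COL1A2, COL3A1 and DCN at 0) and endothelial markers to 0.0679 to 0.134 FPKM (CDH5 at 0). Leukocyte markers summed to 1356 to 1860 FPKM, with LYZ as the one above a mean of 1 FPKM and CD3E at 0. The control library of experiment 2 stood apart. In that experiment the log2 ratio of Myc-TRIM40 to control followed transcript length across 11801 genes (Spearman correlation 0.688), against 0.0833 in experiment 1. Control 2 over control 1 gave −0.55 and Myc-TRIM40 2 over Myc-TRIM40 1 gave −0.209. In experiment 2 the median log2 ratio was −0.41 for genes of at most 1000 bases and 0.51 for genes over 6000 bases, and in experiment 1 the same 2 medians were −0.04 and 0.04. The members fall at the ends of this range, with light chains between 778 and 1223 bases, MYLK at 5444 bases on average over its transcripts and heavy chains between 6812 and 7672 bases. The fitted changes of the 8 genes are therefore also given without control 2 and with the length trend taken out, and the part that the trend has in any result below was not tested.

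The members spanned a wide range of RNA levels. By mean FPKM over the 4 libraries, MYL12B (763) was ahead of MYL6 (603), MYL12A (307), MYH9 (106), MYH14 (71.8), MYH10 (5.87), MYLK (2.09) and MYL9 (0.622). Among all 27685 genes these means ranked between 92 (MYL12B) and 12483 (MYL9). MYL12B was above MYL6 and MYL6 above MYL12A in each of the 4 libraries, and MYH9 was above MYH14 and MYH14 above MYH10 in each. MYH10 and MYLK kept their order in all 4 as well, whereas the lowest MYLK value, 0.530 FPKM in control 2, lay below the 1.25 FPKM of MYL9 in the same library. Over the 4 libraries the ranges of MYL12B and MYL6, of MYH9 and MYH14, of MYH10 and MYLK, and of MYLK and MYL9 overlapped, and those of the other neighbours in the order did not. The epithelial line thus held IIA and IIC heavy chains with MYL12A and MYL12B, and little MYL9, the regulatory light chain best known from smooth muscle.

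**Figure D1:**
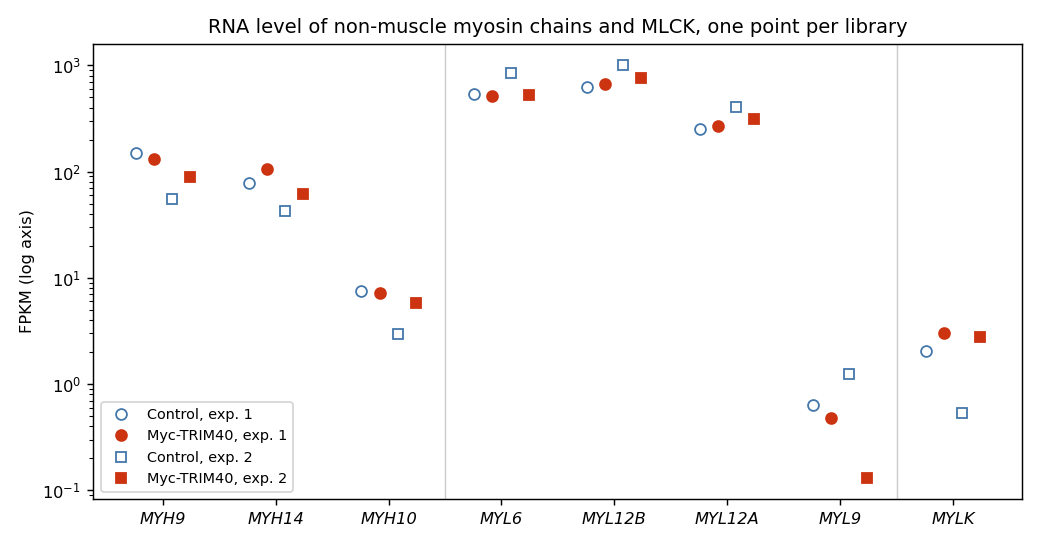
RNA level of the 8 genes in FPKM on a log axis, with 1 point for each of the 4 libraries (open, control; filled, Myc-TRIM40; circles, experiment 1; squares, experiment 2). MYL12B, MYL6 and MYL12A lie at the top, MYL9 and MYLK at the bottom, and control 2 is the lowest library for the 3 heavy chains and MYLK and the highest for the 4 light chains.

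None of the 8 genes passed an adjusted p of 0.05 between Myc-TRIM40 and control, in edgeR's quasi-likelihood test with the experiment as a block and Benjamini-Hochberg adjustment over 14868 genes. Of all genes tested, 0.0404% passed as higher and 0.0202% as lower. At an unadjusted p under 0.05, MYLK was higher and MYL9 lower, where 3.41% and 1.13% of all genes tested were called in these directions. Both calls were absent without the block, and that of MYL9 was also lost in DESeq2, with upper-quartile or total scaling, without the filter and with the length trend taken out. With the length trend taken out as well, 0.00673% of all genes passed as higher and 0 members. DESeq2 called 0 of the 8 (0.303% of all genes as higher, 0.0605% as lower) with a smallest adjusted p of 0.499, and limma on FPKM called 0 of 7. Over all alternatives the smallest adjusted p of any member was 0.244, for MYLK without control 1. On normalized reads both Myc-TRIM40 libraries lay above both controls for MYLK (11.0% of all genes) and below both for MYL6 and MYL9 (9.67% of all genes). The other 5 members overlapped between the groups. An exact permutation test over 2 against 2 libraries cannot go below p = 0.333, and the RNA of a bulk culture does not tell fewer expressing cells from less RNA per cell. With the experiment as a block, a gene's own data left 1 residual degree of freedom. The p-values of that fit therefore lean on variance shared across genes (median prior degrees of freedom 7.44). Differences between the experiments are taken up by the block. Whether each experiment began from a separate transduction is not given in the sources used here.

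MYH9 encodes the IIA heavy chain, the main one of many epithelia, and lies at chr22:36677323-36784112 in hg19. It was measured at 147.9 FPKM in control 1, 130.7 in Myc-TRIM40 1, 55.5 in control 2 and 89.6 in Myc-TRIM40 2. Myc-TRIM40 was the lower library in experiment 1 and the higher one in experiment 2, and the spread between the 2 controls exceeded the difference between groups. The log2 ratio of FPKM + 1 was −0.18 and 0.68 in experiments 1 and 2, and −0.21 and 0.18 with the length trend taken out. The fitted log2 fold change was 0.18 ± 0.23 (SE; 95% interval −0.35 to 0.70; adjusted p = 0.910) and turned negative without control 2 (−0.44) and with the length trend taken out (−0.11).

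MYH14 encodes the IIC heavy chain, at chr19:50706885-50813801. It was measured at 78.0 FPKM in control 1, 104.9 in Myc-TRIM40 1, 42.8 in control 2 and 61.3 in Myc-TRIM40 2. Of the heavy chains it was the one with the higher value in the Myc-TRIM40 library of both experiments, with log2 ratios of 0.42 and 0.51, as for 34.6% of the 11801 genes whose mean FPKM was 1 or more, though Myc-TRIM40 2 lay below control 1. With the length trend taken out the ratios were 0.39 and 0.04. The fitted log2 fold change was 0.39 ± 0.19 (SE; 95% interval −0.05 to 0.84; adjusted p = 0.888), and 0.07 without control 2.

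MYH10, the IIB heavy chain, at chr17:8377523-8534079, was the least abundant of the 3. It was measured at 7.54 FPKM in control 1, 7.18 in Myc-TRIM40 1, 2.99 in control 2 and 5.76 in Myc-TRIM40 2. The groups overlapped, and 3 of the 4 libraries lay within 5.76 to 7.54 FPKM with control 2 below them. Its log2 ratios were −0.06 and 0.76, and −0.10 and 0.25 with the length trend taken out. The fitted log2 fold change of 0.36 ± 0.27 (SE; adjusted p = 0.888) became −0.24 without control 2.

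The heavy chains are of similar length, so that their shares of the summed heavy-chain FPKM are less exposed to the length trend. MYH9 made up 63.4%, 53.8%, 54.8% and 57.2% of it in control 1, Myc-TRIM40 1, control 2 and Myc-TRIM40 2. MYH14 made up 33.4%, 43.2%, 42.3% and 39.1%, and MYH10 between 2.95% and 3.68%. The IIA share was lower with Myc-TRIM40 in experiment 1 and higher in experiment 2, and the 2 controls differed from each other by nearly as much as the libraries of experiment 1.

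MYL6 encodes the essential light chain that stabilises the neck of all 3 forms and lies at chr12:56552045-56555366. It was measured at 541.3 FPKM in control 1, 510.0 in Myc-TRIM40 1, 840.2 in control 2 and 520.5 in Myc-TRIM40 2. Control 2 was the one high library, and the other 3 lay within 510.0 to 541.3 FPKM. The log2 ratios were −0.09 and −0.69, both below 0 as for 20.8% of those 11801 genes, and −0.07 and −0.24 with the length trend taken out. The fitted log2 fold change was −0.47 ± 0.23 (SE; 95% interval −0.997 to 0.058; adjusted p = 0.888), −0.20 with the length trend taken out and −0.08 without control 2.

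MYL12B and MYL12A, the regulatory light chains of most non-muscle cells, had nearly the same pattern. MYL12B was measured at 623.1, 659.3, 1013.1 and 757.5 FPKM in control 1, Myc-TRIM40 1, control 2 and Myc-TRIM40 2. MYL12A was measured at 249.9, 265.8, 402.1 and 310.5 FPKM in the same libraries. For both, Myc-TRIM40 was slightly above control in experiment 1 and below it in experiment 2, and the groups overlapped. The log2 ratios were 0.08 and −0.42 for MYL12B and 0.09 and −0.37 for MYL12A, and with the length trend taken out those of experiment 2 were −0.05 and −0.07. The fitted log2 fold changes were −0.25 ± 0.21 for MYL12B (SE; 95% interval −0.73 to 0.23; adjusted p = 0.888) and −0.22 ± 0.22 for MYL12A (SE; 95% interval −0.73 to 0.29; adjusted p = 0.892). Without control 2 they were 0.17 and 0.20.

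MYL9, at chr20:35169887-35178226, was close to the limit of detection, with 45 reads in control 1, 36 in Myc-TRIM40 1, 92 in control 2 and 10 in Myc-TRIM40 2. These are 0.629, 0.481, 1.25 and 0.130 FPKM. Both Myc-TRIM40 libraries lay below both controls, and the difference was small in experiment 1 and wide in experiment 2. The log2 ratios of FPKM + 1 were −0.14 and −0.99, a scale that understates changes at this level. The fitted log2 fold change was −1.68 ± 0.72 (SE; 95% interval −3.32 to −0.04; unadjusted p = 0.0457; adjusted p = 0.888), −1.479 with the length trend taken out and −1.003 without control 2. Of the listed smooth muscle markers, TAGLN alone had a mean FPKM of at least 1, and the markers' summed FPKM was 5.80, 4.97, 6.39 and 3.53 in control 1, Myc-TRIM40 1, control 2 and Myc-TRIM40 2, in the same order as MYL9. Their part in the MYL9 values was not tested.

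MYL12A and MYL12B kept nearly constant proportions to each other. MYL12B made up 71.3%, 71.2%, 71.5% and 70.9% of their summed FPKM in control 1, Myc-TRIM40 1, control 2 and Myc-TRIM40 2, and MYL12A between 28.4% and 29.1%. MYL9 made up between 0.0122% and 0.0882%. Proportions between light and heavy chains, which differ in length, moved far more. Regulatory light chain FPKM per heavy chain FPKM was 3.74 in control 1, 3.81 in Myc-TRIM40 1, 13.99 in control 2 and 6.81 in Myc-TRIM40 2. For MYL6 the same ratios were 2.319, 2.101, 8.297 and 3.321. In both cases the libraries of experiment 1 lay close together and control 2 stood far above the rest.

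MYLK, at chr3:123331143-123603149, encodes MLCK, the kinase dedicated to the regulatory light chain. It was measured at 2.04 FPKM (731 reads) in control 1, 3.02 (1105 reads) in Myc-TRIM40 1, 0.530 (289 reads) in control 2 and 2.75 (776 reads) in Myc-TRIM40 2. Both Myc-TRIM40 libraries were above both controls, by 1.32-fold in experiment 1 and 2.45-fold in experiment 2 on FPKM + 1. The log2 ratios were 0.406 and 1.295, and 0.375 and 0.904 with the length trend taken out. Its fitted log2 fold change of 0.98 ± 0.27 (SE; 95% interval 0.37 to 1.59; unadjusted p = 0.00581) had the smallest p of the 8, but the adjusted p was 0.752. It was 0.77 with the length trend taken out (SE 0.19; unadjusted p = 0.0120; adjusted p = 0.840) and 0.33 without control 2 (95% interval −0.53 to 1.18). MYLK overlaps the antisense gene MYLK-AS1, which had 61, 57, 120 and 58 reads in control 1, Myc-TRIM40 1, control 2 and Myc-TRIM40 2. The library kit keeps strand, but whether the counting used it is not given in the sources used here.

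Set against length, most members lay near the curve of all genes in experiment 2, with MYLK and MYL9 farthest from it. At least 1.5-fold changes of FPKM + 1 were counted in experiment 2 for 3 members in the higher direction (MYLK, MYH10 and MYH9; 10.7%) and 2 in the lower direction (MYL9 and MYL6; 3.42%). These and the following shares are of the 11801 genes whose mean FPKM was 1 or more, a set that MYL9, with a mean of 0.622, is outside of. In experiment 1 there were 0 in either direction (3.01% and 0.822%), also with the length trend taken out (3.03% and 0.72%), and hence 0 in both experiments (0.568% and 0.11%). All 4 members over 4000 bases were above 0 in experiment 2, as were 93.6% of genes of that length, and all 4 light chains were below 0, as were 79.4% of genes up to 2000 bases. In experiment 1 the members over 4000 bases divided, with MYLK and MYH14 above 0 and MYH9 and MYH10 below, where 58.3% of such genes were above 0, and so did the light chains, with MYL6 and MYL9 below 0, where 52.4% of genes up to 2000 bases were below 0. With the length trend taken out, 1 member was left past 1.5-fold in each direction in experiment 2, MYLK (3.86%) and MYL9 (1.59%).

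**Figure D2:**
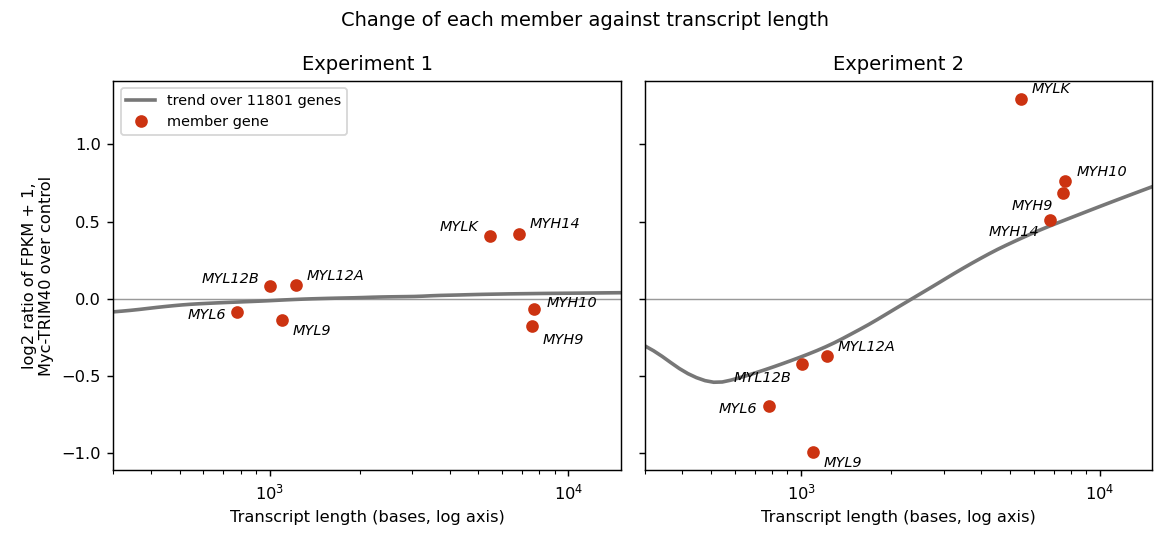
Log2 ratio of FPKM + 1, Myc-TRIM40 over control, against transcript length in bases on a log axis, in experiment 1 (left) and experiment 2 (right), with the trend over 11801 genes as a line and the 8 members as points. The trend is nearly flat in experiment 1 and climbs from short to long genes in experiment 2, where MYL12A, MYL12B and MYH14 sit on it, MYLK lies above it and MYL9 below it.

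**Figure D3:**
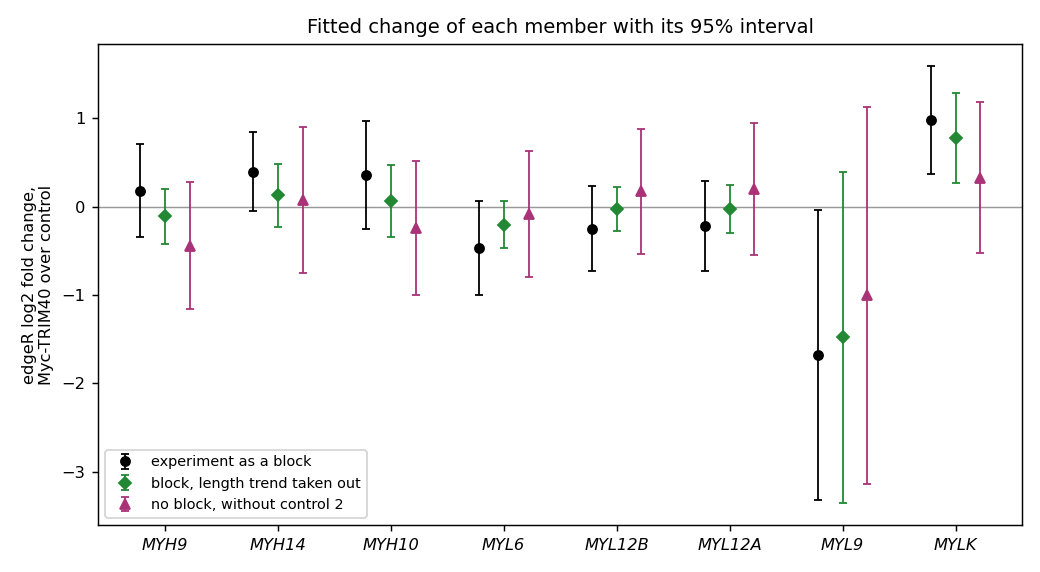
Fitted log2 fold change of each member, Myc-TRIM40 over control, with its 95% interval: with the experiment as a block (black), with the length trend also taken out (green) and without control 2, with no block (purple). For MYH9, MYH10, MYL12A and MYL12B the sign differs between the black and the purple points, and for MYLK all 3 points lie above 0 while the purple interval includes 0.

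The transcripts of a gene give the exons in use, as the authors' estimate of how many reads came from each. Of the 25 transcripts, 22 had enough reads to be tested, and 0 passed an adjusted p of 0.05 or an unadjusted p under 0.05 in edgeR's test over 33773 transcripts (0.0% of all transcripts were called in either direction at the adjusted p). MYH9 was listed as 1 transcript, NM_002473. The exons that tell the forms of MYH14, MYH10, MYL6 and MYL9 apart are printed here from GENCODE v29 on GRCh38, with the coding bases of the exon in capitals and 12 bases of the neighbouring exon on each side in lower case. Exon 6 of MYH14 (24 bases, chr19:50224154-50224177, plus strand) is in NM_001077186 and not in NM_024729, and exon 6 of MYH10 (27 bases, chr17:8576643-8576669, minus strand) is in NM_001256095 and not in NM_005964. Both insert residues near the ATP-binding region of the motor. Exon 6 of MYL6 (45 bases, 26 of them coding, chr12:56160626-56160670, plus strand) is in NM_021019 and not in NM_079423, and the coding sequence ends within it, so that only the bases before it flank the capitals. Exon 3 of MYL9 (162 bases, chr20:36548032-36548193, plus strand) is in NM_006097 and not in NM_181526.
MYH14 exon 6: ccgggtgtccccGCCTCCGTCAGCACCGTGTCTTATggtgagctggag
MYH10 exon 6: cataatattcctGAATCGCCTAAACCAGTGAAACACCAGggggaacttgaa
MYL6 exon 6: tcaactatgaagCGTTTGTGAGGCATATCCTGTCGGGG
MYL9 exon 3: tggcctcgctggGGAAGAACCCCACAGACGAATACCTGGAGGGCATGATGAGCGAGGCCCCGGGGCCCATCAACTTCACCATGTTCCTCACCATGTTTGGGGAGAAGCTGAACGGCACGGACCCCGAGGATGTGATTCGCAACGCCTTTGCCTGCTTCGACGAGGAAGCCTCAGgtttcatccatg

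Nearly all MYH14 RNA held the exon 6 shown above. NM_001077186 had 32740, 43854, 19490 and 26212 reads in control 1, Myc-TRIM40 1, control 2 and Myc-TRIM40 2, or 96.3% to 98.5% of the gene's FPKM. NM_024729, without the exon, had 493, 935, 741 and 607 reads. The form with the exon was higher with Myc-TRIM40 by 1.304-fold in experiment 1 and 1.333-fold in experiment 2, on reads normalized by TMM library sizes. Its fitted log2 fold change was 0.44 ± 0.13 (SE; unadjusted p = 0.0587; adjusted p = 0.977).

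MYH10 was mostly of the form without exon 6. NM_005964 had 3355 reads in control 1, 2930 in Myc-TRIM40 1, 1590 in control 2 and 2523 in Myc-TRIM40 2. NM_001256095, with the exon, had 251, 488, 1 and 312 reads in the same libraries. NM_001256095 thus took 6.89% and 14.1% of MYH10 FPKM in the libraries of experiment 1 and 0.0402% and 10.9% in those of experiment 2. Its share was higher with Myc-TRIM40 in both. The rarer NM_001256012, given below, has a 30-base version of the same exon and is not in these shares. On normalized reads of NM_001256095 the Myc-TRIM40 library of experiment 1 had 1.89 times the control value. In experiment 2 the ratio of 309.2 rests on 1 listed read of control 2, with a 95% counting interval of 55.1 to 12251. That read is a whole-number estimate, which the interval takes as a counted read. In control 2 NM_001256012 is also listed at 1 read, at 2e-05 FPKM against 0.0012 FPKM for NM_001256095. The adjusted p of NM_001256095 was 0.977 by edgeR, and control 1 held 251 of its reads where control 2 held 1.

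MYL6 was divided between its forms in every library. NM_079423 had 19062, 17652, 28699 and 17220 reads, and NM_021019, with the exon printed above, had 7214, 7181, 16780 and 8799 reads in control 1, Myc-TRIM40 1, control 2 and Myc-TRIM40 2. By FPKM the exon-containing share was 26.3%, 27.8%, 35.6% and 32.5%. The libraries of experiment 2 were higher than those of experiment 1, and within experiments Myc-TRIM40 was the higher library in experiment 1 and the lower one in experiment 2. On reads, the share in control 2 was 36.9% (95% Wilson interval 36.5 to 37.3) and in Myc-TRIM40 2 33.8% (33.3 to 34.4), intervals that cover counting error only.

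The few MYL9 reads were divided between its forms in different proportions in each library. NM_006097, the form with exon 3, had 22 reads in control 1, 35 in Myc-TRIM40 1, 8 in control 2 and 10 in Myc-TRIM40 2. NM_181526, without it, had 23, 1, 84 and 0 reads. The lower MYL9 sum with Myc-TRIM40 thus lay in the form that lacks exon 3. On normalized reads, control over Myc-TRIM40 for that form was 23.6 in experiment 1 (95% counting interval 3.84 to 973). Against a floor of 3 reads, the same ratio was 28.3 in experiment 2. Interval and floor cover counting error only, and not the assignment of reads between the forms. The adjusted p was 0.977 for both forms.

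MYLK was divided among 7 transcripts, of 2 kinds. In the annotation 5 of them have a coding length between 5535 and 5742 bases and hold the kinase, and NM_053031 and NM_053032, with coding lengths of 459 and 462 bases, encode telokin, the C-terminal end of the protein without the kinase. This division was made after the values were seen. The kinase-coding transcripts together had 604 reads (1.26 FPKM) in control 1, 917 (1.87 FPKM) in Myc-TRIM40 1, 289 (0.530 FPKM) in control 2 and 479 (0.970 FPKM) in Myc-TRIM40 2. The telokin transcripts had 127 (0.780 FPKM), 188 (1.15 FPKM), 0 and 297 (1.78 FPKM). On normalized reads the kinase-coding sum was higher with Myc-TRIM40 by 1.48-fold in experiment 1 and 1.64-fold in experiment 2. The telokin sum had a ratio of 1.44 in experiment 1 and, against a floor of 3 reads, of 98.1 in experiment 2. That floor covers counting error only. In control 2 all 289 MYLK reads were assigned to NM_053025, so the division into 2 kinds rests on that assignment. The larger MYLK ratio of experiment 2 therefore includes 297 reads of telokin transcripts that are listed at 0 in control 2. At the length of MYH10, near that of the kinase-coding transcripts, the trend of all genes in experiment 2 was 0.51 on the log2 scale of FPKM + 1. The ratios of 1.48 and 1.64 are on normalized reads, another scale, and are not set against this value. The FPKM of the kinase-coding sum given above would allow a comparison on FPKM + 1, which was not made here. The kinase-coding sum was not tested as such.

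Single MYLK transcripts did not keep their levels from library to library. NM_001321309 had 394 reads in control 1, 0 in Myc-TRIM40 1, 0 in control 2 and 306 in Myc-TRIM40 2. NM_053025 had 117, 758, 289 and 107 reads in the same libraries. These 2 forms have coding sequences of the same length, 5742 bases, and the one was high where the other was low, so that their sum varied less than either.

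MYL12A and MYL12B were each carried by 1 form, NM_006471 with 91.8% to 95.02% and NM_033546 with 98.8% to 99.3% of the gene's FPKM. The minor MYL12A forms NM_001303047 and NM_001303049 were at least 1.5-fold lower with Myc-TRIM40 in both experiments on normalized reads, with at least 10 reads in every library. The share of all transcripts that did so was not computed. NM_001303047 had 702, 398, 1245 and 787 reads, and NM_001303049 had 223, 128, 360 and 128 reads in control 1, Myc-TRIM40 1, control 2 and Myc-TRIM40 2. Their fitted log2 fold changes were −0.73 ± 0.28 and −1.13 ± 0.47 (SE; by edgeR, unadjusted p = 0.0997 and 0.115, adjusted p = 0.977 for both). The second form of MYL12B, NM_001144944, had 236, 321, 611 and 563 reads in the same libraries. Named outside the rule, NM_001256012 of MYH10 had 15, 36, 1 and 5 reads, and NM_001145809 of MYH14 had 5 to 8 reads. NM_001256012 carries inserts known from neurons, the 30-base version of exon 6 and an exon 17 of 63 bases.

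**Figure D4:**
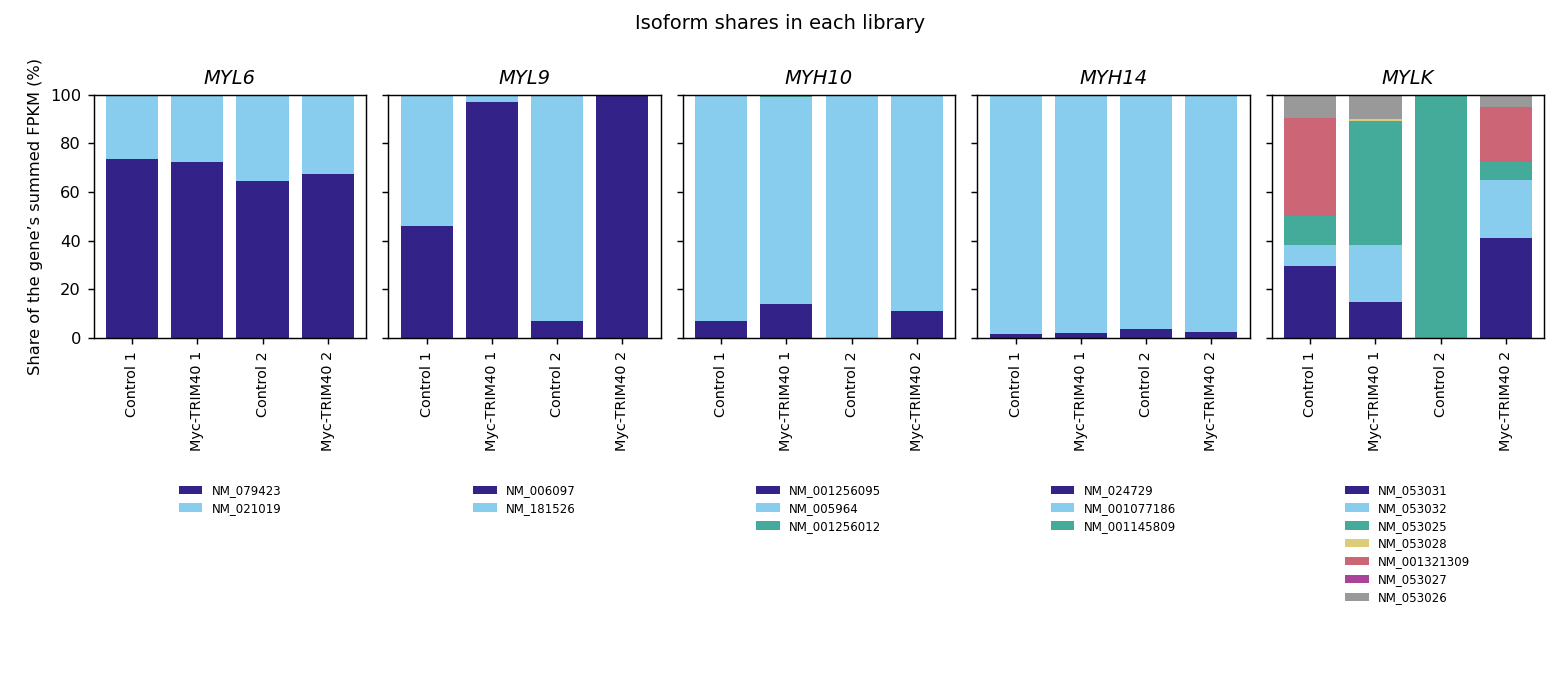
Share of each transcript in the summed FPKM of its gene, in percent, in the 4 libraries, for the 5 members with more than 1 form of interest. MYH14 was nearly all 1 form in every library, and the forms of MYL9 and MYLK changed from library to library. The MYH10 form NM_001256095 was 6.89% and 14.1% in experiment 1 and 0.0402% and 10.9% in experiment 2.

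The genes that act on the motor were taken from a list of 57, of which 51 had enough reads to be tested. None passed an adjusted p of 0.05 in edgeR's test, in DESeq2 or in limma. At an unadjusted p under 0.05 in edgeR's test there were 3 higher (3.41% of all genes tested) and 0 lower (1.13%). Without the block these 3 were not called either. Of the 51, 27 (52.9%) had a fitted log2 fold change above 0, against 54.9% of all genes tested, with a median of 0.12 against 0.04. By group, the kinases of the regulatory light chain had 10 of 14 above 0 (median 0.25), the small GTPases with their exchange factors and GAPs 8 of 13 (0.12), and filament partners 6 of 12 (0.09). Myosin phosphatase subunits and inhibitors had 3 of 7 above 0 (median −0.09) and other myosin chains 0 of 2 (−0.27). In experiment 2 the kinases' median log2 ratio of FPKM + 1 was 0.41, and 0.00 with the length trend taken out.

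For the kinase ROCK1 the paper reports less protein in HT-29 cells with TRIM40, and no such decrease of its mRNA. Its RNA was measured here at 9.90 FPKM in control 1, 9.88 in Myc-TRIM40 1, 7.07 in control 2 and 10.98 in Myc-TRIM40 2. The 2 libraries of experiment 1 were the same to within 0.02 FPKM, and those of experiment 2 lay on either side of them. ROCK1 had a fitted log2 fold change of 0.24 ± 0.23 (SE; adjusted p = 0.892) and ROCK2, its paralog, 0.25 ± 0.23 (adjusted p = 0.888). With the length trend taken out both were slightly negative, at −0.0222 and −0.0592, and without control 2 they were 0.0616 and 0.218. RHOA, the GTPase that activates both, had −0.20 ± 0.20 (adjusted p = 0.892). For myosin phosphatase, the targeting subunit PPP1R12A had 0.23 and the catalytic subunit PPP1CB had −0.09. Without control 2 the fitted changes of RHOA, PPP1R12A and PPP1CB were 0.10, 0.0745 and 0.42, and with the length trend taken out −0.12, 0.0234 and −0.27.

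MYL6B, a second essential light chain gene, was measured at 29.2, 29.6, 30.4 and 21.5 FPKM in control 1, Myc-TRIM40 1, control 2 and Myc-TRIM40 2, with a fitted log2 fold change of −0.32 ± 0.24 (SE; adjusted p = 0.888), −0.21 without control 2 and −0.0903 with the length trend taken out. The muscle chains MYL2, MYL3, MYL4, MYL7 and MYH11 had too few reads to be tested. Among listed genes with the same sign in both experiments, the highest fitted changes were those of MYLK4 (0.86, from 11 to 31 reads a library), PPP1R14D (0.76, from 25 to 83 reads) and CDC42BPA (0.64). Without control 2 MYLK4 had 0.74 and PPP1R14D 1.64, and with the length trend taken out 0.64 and 1.04. CDC42BPA encodes MRCKα, a Cdc42 effector that also phosphorylates the regulatory light chain, and it was measured at 5.12, 6.88, 2.75 and 5.58 FPKM in control 1, Myc-TRIM40 1, control 2 and Myc-TRIM40 2 (unadjusted p = 0.0207; adjusted p = 0.888). Its fitted log2 fold change was 0.27 without control 2 and 0.28 with the length trend taken out, where it no longer had an unadjusted p under 0.05. The other genes with an unadjusted p under 0.05, ARHGEF12 (0.59) and CGN (0.55), were named after their values were seen, and with the length trend taken out only CGN of the 3 kept such a p. ARHGEF12 encodes a RhoA exchange factor and CGN encodes cingulin, a tight junction protein that binds myosin.

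The lowest fitted changes with the same sign in both experiments were those of PPP1R14B (−0.50) and S100A4 (−0.45), each with an adjusted p of 0.888. Without control 2 they were −0.0448 and −0.251, and with the length trend taken out −0.268 and −0.139. With the length trend taken out, 1 listed regulator was higher and 2 were lower at an unadjusted p under 0.05, PPP1R14B among the lower. DESeq2 also gave PPP1R14B such a p in the lower direction, and edgeR's main fit did not. PPP1R14B encodes an inhibitor of myosin phosphatase and was measured at 208.5, 179.9, 350.3 and 227.8 FPKM in control 1, Myc-TRIM40 1, control 2 and Myc-TRIM40 2. S100A4, which binds the tail of the IIA heavy chain, was measured at 61.9, 60.2, 73.5 and 45.3 FPKM in the same libraries.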

How the data were processed

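RNA of 2 control and 2 Myc-TRIM40 HT-29 cultures was sequenced from TruSeq Stranded mRNA libraries. The authors deposited estimated counts per RefSeq transcript, as whole numbers that were not normalized, FPKM (counts scaled by transcript length and library total), TPM, which for experiment 1 was computed here from FPKM, and transcript lengths. The submitters' processing notes name HISAT2 2.1.0, StringTie 1.3.4d and hg19, without saying what each was used for.

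The members and lists were chosen with earlier results of these data known. Counts were summed per gene and tested with edgeR 4.0.16 (TMM, filterByExpr, quasi-likelihood test, experiment as a block), adjusted by Benjamini-Hochberg over 14868 genes or 33773 transcripts, after a check on simulated data. The study computed fold changes within an experiment, and same-numbered libraries deviated together (correlation 0.449). DESeq2 1.42.0, limma 3.58.1, other scalings and filters, and leaving out libraries were alternatives, and taking out the trend of the log2 ratio against length was one chosen after seeing the data. Named genes were the members, TRIM40, MYL6B, ROCK1, ROCK2, RHOA, PPP1R12A and PPP1CB, listed regulators that passed, and the 3 highest and 3 lowest with the same sign in both experiments, 1 of which is not reported here. Named isoforms were the 2 of each member with the most reads and any past 1.5-fold the same way in both experiments with at least 10 reads in every library. All 25 member transcripts matched GENCODE v29, the source of the sequences. The number of experiments, more than the library totals, limits the precision of fold changes. The intervals of read shares and of read ratios, and the floors, cover counting error only. The intervals of fitted fold changes come from the fit, with its estimated variance between libraries, and are not limited to counting error.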

Additional observations from a re-analysis of the deposited data

Results flagged for a closer look

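For 4 members the log2 ratio of FPKM + 1, Myc-TRIM40 over control, had opposite signs in the 2 experiments, with 1 library of each group in each. MYH9 had −0.176 in experiment 1 and 0.683 in experiment 2, and MYH10 had −0.0630 and 0.762. MYL12A had 0.0883 and −0.372, and MYL12B had 0.0814 and −0.419. The difference between the experiments was not tested. In all 4 the value farther from 0 was that of experiment 2, in the direction of the length trend measured there. With the length trend taken out the signs were still opposite in all 4. MYH9 then had −0.211 and 0.176, and MYH10 had −0.0976 and 0.250. MYL12A had 0.0915 and −0.0668, and MYL12B had 0.0924 and −0.0461. The part of that trend was not tested.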

How the results depend on the processing

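The counts of members, member transcripts and listed regulators past an adjusted p of 0.05 were 0 in each direction under every alternative run for them, and the range over left-out libraries was 0 to 0. Without the replicate block the counts were also 0 and 0, MYLK had 0.85 (adjusted p = 1.00) and the block changed no call at the adjusted p, while at an unadjusted p under 0.05 the calls of MYLK, MYL9 and 3 regulators were lost without it. Without control 2, log2 fold changes turned sign for MYL12A (0.20), MYL12B (0.17), MYH9 (−0.44), MYH10 (−0.24), RHOA (0.10) and PPP1CB (0.42). Without Myc-TRIM40 1 they did so for MYH9 (−0.24), MYH14 (−0.0469) and PPP1CB (0.13), without control 1 for PPP1R14D (−0.0506). Leaving out an experiment, 1 or 2, gave −0.496 and 0.0570 for MYL12A, −0.545 and 0.0463 for MYL12B, 0.567 and −0.213 for MYH9 and 0.821 and −0.106 for MYH10, values with no test. With the length trend taken out, chosen after seeing the data, MYH9 (−0.11), ROCK1 (−0.0222) and ROCK2 (−0.0592) turned sign. Of 3 members at least 1.5-fold higher in experiment 2, 1 was left at 2-fold and 1 with the length trend taken out. Of 2 lower, 1 was left on TPM, 0 at 2-fold, 1 with a mean FPKM of at least 1 and 1 with the length trend taken out. Leaving out an experiment moved the difference in the MYH9 share, Myc-TRIM40 minus control, between −9.51 and 2.41 percentage points. That of the MYH10 form NM_001256095 moved between 7.19 and 10.9. The cause was not tested.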

Other observations

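The genes whose log2(TPM + 1) profile over the 4 libraries was nearest to that of a member, among 11801 genes whose mean FPKM was 1 or more, are given for the 4 most abundant members. The distance is Euclidean after each gene's own mean is subtracted, over 4 libraries only. MYL12B was nearest to SPINT1-AS1 (0.00942) and LOC648987 (0.0163), and MYL6 to AP2S1 (0.0299) and NTHL1 (0.0319). MYL12A was nearest to SNORA70 (0.0321) and to MYL12B (0.0336), the paralog with which it shares much of its coding sequence. MYH9 was nearest to LINC00893 (0.0333) and ANKMY1 (0.0349).

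CALM2, a calmodulin gene outside the rule for named genes and chosen after its values were seen, was measured at 164.5 FPKM in control 1, 287.3 in Myc-TRIM40 1, 516.3 in control 2 and 196.0 in Myc-TRIM40 2. Its log2 ratios of FPKM + 1 were 0.80 in experiment 1 and −1.39 in experiment 2, and its fitted log2 fold change was −0.34 ± 0.44 (SE; adjusted p = 0.910 by edgeR).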
